A study of Gallus gallus with 12 samples.

Results

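Genes of oxygen and sugar metabolism were followed through the 12 otocysts of this series, which are *LDHA* (ENSGALT00000039415.4), *SLC16A3* (ENSGALT00000004306.4), *P4HA1* (ENSGALT00000006896.6) and *DDIT4* (ENSGALT00000080768.2). They are 4 of the 28756 transcripts quantified in each otocyst, taken by their transcript identifiers, and they were chosen by their differences in CPM between right and left otocysts after DNBCAT. Those differences are therefore given below as a description with no test. *LDHA*, *SLC16A3* and *P4HA1* are also in the table of regulated genes that the study drew from the same DNBCAT libraries, and *DDIT4* is not. All 4 passed the filter on low counts in both datasets.

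The series compared the otocysts of single White Leghorn chicken embryos, the closed vesicles of epithelium from which the inner ear forms. The right otic cup was electroporated in the egg at embryonic day 2, and both otocysts were collected 24 h later, at embryonic day 3. In Wnt LOF EP 24 h (embryos 50, 51 and 52) the right otocyst received DNBCAT, a β-catenin without its N- and C-terminal parts that acts as a dominant negative on Wnt transcription, joined to mCherry, and the left otocyst was not transfected. In Control EP (embryos 60, 61 and 62) the right otocyst received mCherry alone, a red fluorescent protein, and the left otocyst was again not transfected. All right otocysts thus carried the fluorescent protein and all left ones came from an electroporated embryo. Electroporation transfects only some of the cells, the embryos with the strongest fluorescence were the ones sequenced, and the otocysts were dissected cold and freed of mesenchyme by hand.

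Cells that lack oxygen stabilise the hypoxia-inducible factors, transcription factors that in vertebrate cells raise glucose uptake, glycolysis and lactate export and slow protein synthesis. Embryonic tissues also run glycolysis at a high rate in the presence of oxygen, so these genes are expressed under normal conditions too. *LDHA* encodes a subunit of lactate dehydrogenase, which turns pyruvate into lactate. *SLC16A3* (MCT4) encodes a membrane carrier that exports lactate with a proton. *P4HA1* encodes the catalytic subunit of collagen prolyl 4-hydroxylase, an enzyme that needs oxygen to hydroxylate collagen chains. *DDIT4* (REDD1) encodes an inhibitor of mTORC1 signalling that is induced by hypoxia and by other forms of stress. In the RefSeq annotation of GRCg7b, a later build than the one used for the counts, *LDHA* is on chromosome 5 and *SLC16A3* on chromosome 18, whereas *P4HA1* and *DDIT4* share chromosome 6 with 5 genes between them. The span of *P4HA1* overlaps that of *NUDT13* there, and the library kit does not mark strand, so part of the *P4HA1* reads could belong to the other gene.

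The libraries held between 13157404 and 16097100 estimated counts, and between 20443 and 21499 transcripts had at least 1 count. One library stood apart. In the right otocyst of embryo 51 the 10 most abundant transcripts took 12.4% of the counts, against 4.48% to 5.84% in the other 11 libraries, and its TMM factor, which corrects the library size for such composition, was 0.772 against 0.986 to 1.07 over the right otocysts and 0.981 to 1.06 over the left ones. Levels are given in CPM, counts scaled to the TMM-normalized library size, for comparisons between otocysts, and in TPM, which is scaled for transcript length, for comparisons between genes. *AXIN2*, a feedback target of Wnt signalling that the study's table also lists, had right-left log2 ratios of -0.90, -0.80 and -0.68 in the 3 DNBCAT embryos and -0.06, -0.11 and -0.42 in the 3 mCherry embryos. All 7 otic epithelium markers examined (*SOX10*, *SOHO-1*, *LMX1A*, *DLX5*, *FGF10*, *FGF3*, *OTOP1*) were detected in every otocyst, and the 3 mesenchyme markers examined (*COL1A2*, *LUM*, *DCN*) were detected in every otocyst as well. Both members of a pair come from the same embryo. The p-values within a dataset rest on its 3 embryos, with a spread estimated in part from all transcripts. Those of the difference between the datasets rest on 6 embryos, and those of the correlations on 6 left otocysts.

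Per length, *LDHA* was the most abundant of the 4 genes, with a median of 66.9 TPM over the 12 otocysts (range 28.3 to 159), above the median level of 86.5% of the transcripts tested. *DDIT4* had a median of 60.7 TPM (27.9 to 112), *P4HA1* of 51.1 TPM (14.5 to 79.1) and *SLC16A3* of 20.7 TPM (7.78 to 49.4). *SLC16A3* was the lowest of the 4 in all 12 otocysts. The order of the other neighbours was not as regular, since *LDHA* exceeded *DDIT4* in 8 of 12 otocysts and *DDIT4* exceeded *P4HA1* in 10 of 12. Depth was ample for *LDHA* (475 to 2440 estimated counts per otocyst), *SLC16A3* (335 to 1346) and *P4HA1* (1051 to 3462), and thinner for *DDIT4* (179 to 459), whose annotated transcript is the shortest at 639 bases.

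**Figure D1:**
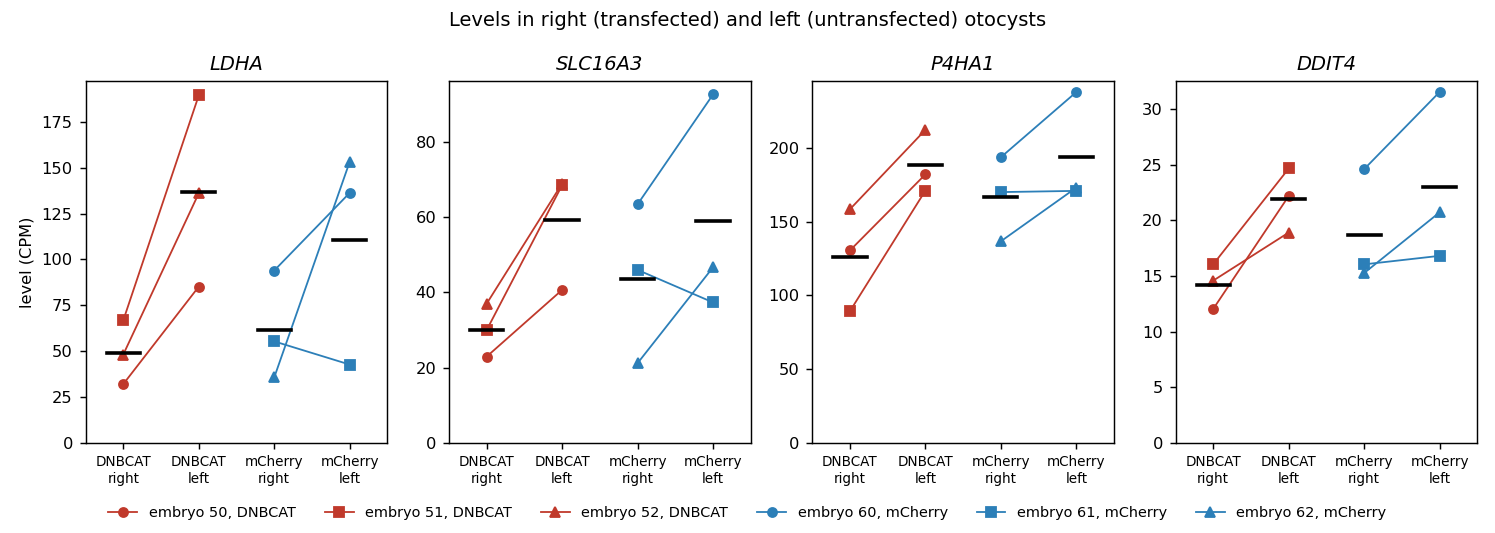
Level in CPM (vertical axis, from 0) of each gene in the right and left otocysts of the DNBCAT and mCherry embryos. Points are single otocysts, lines join the right and left otocyst of 1 embryo and black bars are means of 3. The DNBCAT right otocysts lie below the DNBCAT left ones for all 4 genes, and the mCherry groups overlap.

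After DNBCAT, *LDHA* was at 32.0, 66.7 and 48.1 CPM in the right otocysts of embryos 50, 51 and 52, against 85.1, 189 and 136 CPM in their left otocysts. The groups did not overlap, and each right otocyst held 0.352 to 0.376 of the level on its own left side. The mean was 48.9 ± 17.4 CPM on the right and 137 ± 52.1 CPM on the left (SD, n = 3 each), so the embryos differed in level by more than they differed in ratio. The log2 fold change was -1.47 (SE 0.08), the narrowest error of the 4 genes relative to its size.

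After mCherry, *LDHA* was at 93.9, 55.3 and 35.6 CPM in the right otocysts of embryos 60, 61 and 62, against 136, 42.6 and 153 CPM in the left ones. The 3 embryos went in different directions: the right side was lower in embryos 60 and 62 and higher in embryo 61, where the left otocyst had the lowest *LDHA* level of all 6 left otocysts. The log2 ratios were -0.54, 0.37 and -2.10, so the difference in embryo 62 was larger than in any DNBCAT embryo (-1.41, -1.50 and -1.50). The log2 fold change of Control EP was -0.76 (SE 0.51), which did not pass the test (adjusted p = 0.960, edgeR's quasi-likelihood test). It rested on embryo 62: without that embryo it was -0.11, without embryo 61 it was -1.29 and without embryo 60 it was -0.89.

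*SLC16A3*, the lactate carrier, had 22.9, 29.9 and 36.9 CPM in the DNBCAT right otocysts, against 40.6, 68.4 and 68.9 CPM in the left ones. Again the groups did not overlap, and the log2 ratios were -0.83, -1.19 and -0.90 in embryos 50, 51 and 52. The mean was 29.9 ± 7.03 CPM on the right and 59.3 ± 16.2 CPM on the left (SD, n = 3 each), a log2 fold change of -0.97 (SE 0.12). After mCherry it had 63.4, 46.0 and 21.1 CPM on the right, against 92.6, 37.3 and 46.6 CPM on the left. The pattern over the embryos was that of *LDHA*, with log2 ratios of -0.55 in embryo 60, 0.30 in embryo 61 and -1.14 in embryo 62. The fold change of -0.45 (SE 0.29) did not pass the test (adjusted p = 0.960, edgeR), and it was -0.14 without embryo 62, -0.82 without embryo 61 and -0.40 without embryo 60.

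*P4HA1*, the collagen hydroxylase, had 131, 89.3 and 159 CPM in the DNBCAT right otocysts, against 182, 171 and 212 CPM in the left ones. The lowest of these values was that of the library that stood apart, the right otocyst of embryo 51, and that embryo also had the largest difference, with log2 ratios of -0.48, -0.94 and -0.42 in embryos 50, 51 and 52. The mean was 126 ± 34.8 CPM on the right and 189 ± 21.4 CPM on the left (SD, n = 3 each). The log2 fold change was -0.61 (SE 0.13), and -0.45 without embryo 51. After mCherry *P4HA1* had 193.8, 170.2 and 137 CPM on the right, against 238, 171 and 173 CPM on the left. The right side was lower in embryos 60 and 62 (-0.30 and -0.34) and nearly level with the left in embryo 61 (-0.01), a log2 fold change of -0.21 (SE 0.08) that did not pass the test (unadjusted p = 0.0529, adjusted p = 0.960, edgeR). It was between -0.32 and -0.15 with each embryo left out in turn.

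*DDIT4*, the mTORC1 inhibitor, had 12.04, 16.1 and 14.6 CPM in the DNBCAT right otocysts, against 22.2, 24.7 and 18.9 CPM in the left ones. The groups did not overlap, but the ratios were spread more widely than those of *LDHA*, with -0.88, -0.62 and -0.37 on the log2 scale in embryos 50, 51 and 52. The mean was 14.2 ± 2.03 CPM on the right and 21.9 ± 2.89 CPM on the left (SD, n = 3 each), a log2 fold change of -0.62 (SE 0.17). After mCherry it had 24.6, 16.1 and 15.3 CPM on the right, against 31.6, 16.8 and 20.7 CPM on the left. All 3 mCherry embryos were lower on the right, by log2 ratios of -0.36, -0.07 and -0.44. The log2 fold change of -0.29 (SE 0.12) did not pass the test (unadjusted p = 0.0675, adjusted p = 0.960, edgeR), and it was between -0.40 and -0.22 with each embryo left out in turn.

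**Figure D2:**
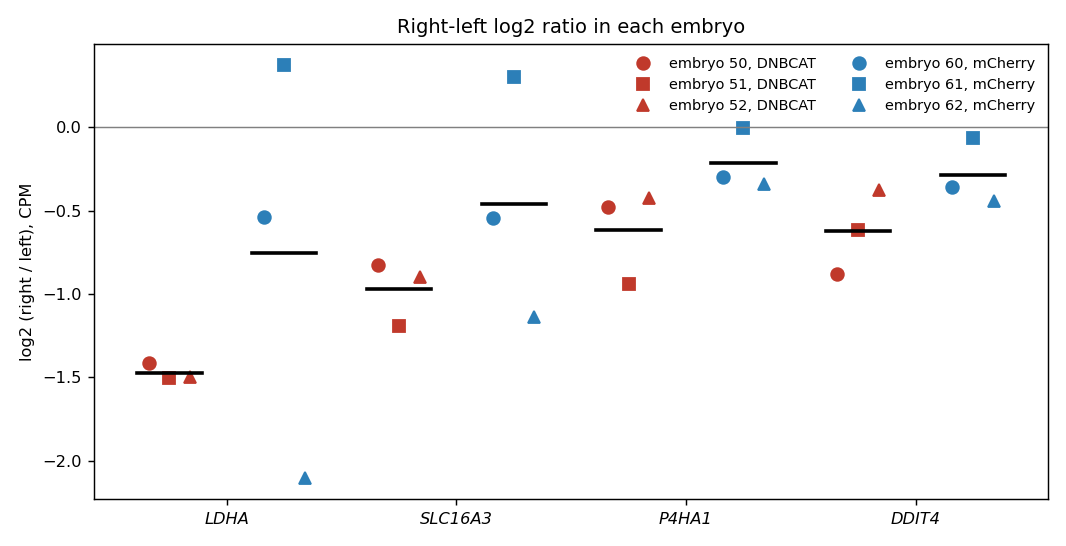
Log2 of the right over the left level in CPM (vertical axis) for each gene, with 1 point per embryo and black bars for the mean of 3, DNBCAT to the left of mCherry. The 3 DNBCAT ratios of *LDHA* lie between -1.50 and -1.41, and the 3 mCherry ratios between -2.10 and 0.37.

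All 4 genes were thus lower on the DNBCAT side in each of the 3 DNBCAT embryos, with a median log2 fold change of -0.80 against -0.02 over all 19408 transcripts tested. Over all transcripts, 52.3% had a log2 fold change below 0, 17% had a lower right side in all 3 DNBCAT embryos and 5.13% had 3 right otocysts below all 3 left ones. These are values of the contrast that chose the genes, so nothing is read from their excess. Control EP is not the contrast that chose the genes. The choice was made with earlier results of these data known, so the Control EP values are not independent evidence either. In Control EP all 4 log2 fold changes were below 0, as were 50% of all 19754 transcripts tested. The median of the 4 was -0.37 against 0.00 over all transcripts, and 2 of the 4 (*P4HA1* and *DDIT4*) were lower in all 3 mCherry embryos, against 14.2% of all transcripts. None of the 4 had 3 right otocysts below all 3 left ones after mCherry, which 2.72% of all transcripts did. *P4HA1* and *DDIT4* were lower on the right in all 6 embryos of the series, which held for 3.56% of the 19298 transcripts tested with 12 libraries, although 3 of these embryos come from the contrast that chose them. None of the 4 had an adjusted or an unadjusted p under 0.05 in Control EP with edgeR, and by the Wald test of DESeq2 no adjusted p was under 0.05. Over all transcripts edgeR called 0% in Wnt LOF EP 24 h, with 6.2% at an unadjusted p under 0.05, and DESeq2 called 2.35%. In Control EP edgeR also called 0%, with 3.75% at an unadjusted p under 0.05, and DESeq2 called 0.425%.

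The DNBCAT difference was larger than the mCherry one for each gene in the mean, by a log2 fold change of -0.72 (SE 0.59) for *LDHA*, -0.51 (SE 0.35) for *SLC16A3*, -0.40 (SE 0.17) for *P4HA1* and -0.33 (SE 0.20) for *DDIT4*. These 4 differences contain the DNBCAT contrast, so no test is given for them, and over all transcripts 4.36% had an unadjusted p under 0.05 and 0% an adjusted p under 0.05 (edgeR). Set against all 19298 transcripts tested with 12 libraries, the ratio of *LDHA* was in the lowest 11.8% in every embryo but 61. For it, 6.09%, 7.18% and 4.89% of the transcripts had a lower ratio in embryos 50, 51 and 52, and 11.8%, 84.3% and 3.26% in embryos 60, 61 and 62. For *SLC16A3* these shares were 11.6%, 9.55% and 9.28% in the DNBCAT embryos and 11.6%, 81.9% and 6.23% in the mCherry embryos. For *P4HA1* and *DDIT4* they lay between 10.8% and 20.4% in embryos 50, 51, 52, 60 and 62, and were 49.2% and 40.2% in embryo 61. The transcripts behind these shares were not matched for depth and include many with low counts. The SD of their log2 ratios was 1.35 to 1.57 by embryo. The shares in embryos 50, 51 and 52 also come from the contrast that chose the genes, so all are a description only. In such bulk samples fewer cells of a type and less RNA per cell cannot be told apart. The summed level of the 3 mesenchyme markers was 381 to 583 CPM in the DNBCAT right otocysts and 352 to 574 CPM in the left ones, and 431 to 486 CPM in the mCherry right and 355 to 475 CPM in the mCherry left otocysts. By pair it was 381, 495 and 583 CPM on the right of embryos 50, 51 and 52, against 574, 504 and 352 CPM on the left. In embryos 60, 61 and 62 it was 433, 431 and 486 CPM on the right, against 475, 466 and 355 CPM on the left. The direction of this sum thus differed between embryos. The 2 neuroblast markers, *NHLH1* and *NEUROD1*, which the study's table lists, summed to 68.7 to 90.8 CPM in the DNBCAT right otocysts and 96.0 to 116 CPM in the left ones, and to 90.6 to 147 CPM on the right and 110.3 to 134 CPM on the left after mCherry. The 2 differed after DNBCAT. *NEUROD1* had log2 ratios of -0.57, -0.56 and -0.32 in embryos 50, 51 and 52. *NHLH1* had -1.17, -0.47 and 0.55, and its right and left groups overlapped. The 7 otic epithelium markers summed to 779 to 1314 CPM on the right and 1069 to 1283 CPM on the left after DNBCAT, the lowest value being that of the right otocyst of embryo 51, and to 1149 to 1341 CPM on the right and 1289 to 1341 CPM on the left after mCherry. The contractile markers *ACTA2* and *TAGLN* summed to 11.2 to 38.7 CPM on the right and 22.8 to 43.9 CPM on the left after DNBCAT, and to 20.2 to 31.2 CPM on the right and 23.6 to 34.9 CPM on the left after mCherry. No marker was at 0 in any otocyst, and the part of these cells in the differences was not tested.

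Whether the 4 genes move together was examined first in the left otocysts, which carry no construct and come from 6 different embryos. The left otocysts of embryos 50, 51 and 52 are also one side of the contrast that chose the genes, so the p-values of these correlations are not independent of that choice. There *LDHA* varied most, from 42.6 to 189 CPM with a median of 136 CPM, a 4.44-fold range. *SLC16A3* ranged 2.48-fold (37.3 to 92.6 CPM), *DDIT4* 1.88-fold (16.8 to 31.6 CPM) and *P4HA1* 1.39-fold (171 to 238 CPM). The left otocyst of embryo 61 was the lowest of the 6 for *LDHA*, *SLC16A3*, *P4HA1* and *DDIT4* alike, level with that of embryo 51 (171 CPM each) for *P4HA1*, and that of embryo 60 was the highest for all of them except *LDHA*, which was highest in embryo 51.

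All 6 pairwise correlations of log2 CPM over the left otocysts were positive, and none passed the test. Pearson's r was 0.76 for *SLC16A3* and *P4HA1* (rho 0.77, p = 0.0694 for r and 0.103 for rho), 0.74 for *SLC16A3* and *DDIT4* (rho 0.60, p = 0.0861 and 0.242) and 0.69 for *LDHA* and *SLC16A3* (rho 0.54, p = 0.104 and 0.297) in the two-sided exact permutation test over 6 otocysts. It was 0.57 for *LDHA* and *DDIT4* (rho 0.60, p = 0.243 and 0.242), 0.57 for *P4HA1* and *DDIT4* (rho 0.49, p = 0.257 and 0.356) and 0.26 for *LDHA* and *P4HA1* (rho 0.09, p = 0.658 and 0.919) in the same exact test. With adjustment over the 6 pairs the p-values of r were between 0.208 and 0.658 and those of rho between 0.427 and 0.919 (exact permutation test). The smallest p that 6 otocysts allow for r is 0.00139, and that for rho is larger. These correlations rested on few otocysts. Leaving out the most extreme levels also narrows the range, which by itself tends to lower r. Without the 2 otocysts farthest from the median of the gene named first, r was -0.28 for *LDHA* and *SLC16A3*, -0.81 for *LDHA* and *P4HA1*, 0.02 for *LDHA* and *DDIT4*, 0.37 for *SLC16A3* and *P4HA1*, -0.03 for *SLC16A3* and *DDIT4* and 0.27 for *P4HA1* and *DDIT4*.

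**Figure D3:**
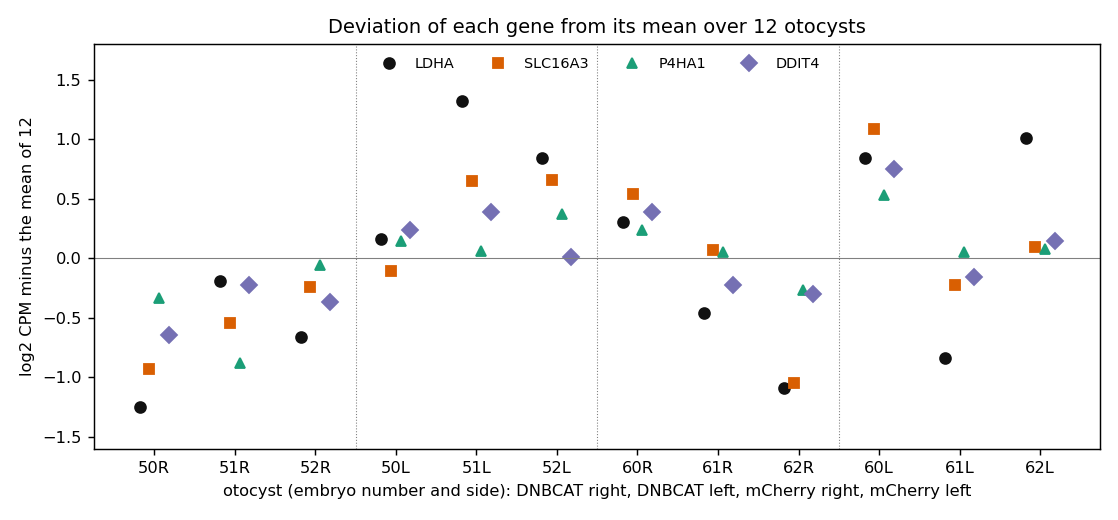
Log2 CPM of each gene minus its own mean over the 12 otocysts (vertical axis), for the 3 otocysts of each group (horizontal axis, embryo number with R for right and L for left). All 4 genes lie below their means in the right otocysts of embryos 50, 51, 52 and 62 and above them in both otocysts of embryo 60.

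The right-left ratios of the 6 embryos are described with no test, since the DNBCAT embryos among them chose the genes. *LDHA* and *SLC16A3*, the enzyme that makes lactate and the carrier that exports it, had the closest ratios, with Pearson's r of 0.95 (rho 0.94, n = 6 embryos). Leaving out each embryo in turn gave r between 0.86, without embryo 61, and 0.97, without embryo 51. The other pairs had r between 0.61 (*LDHA* and *P4HA1*) and 0.79 (*SLC16A3* and *P4HA1*). Those that involve *DDIT4* rested on embryo 61, the 1 embryo with *LDHA* and *SLC16A3* higher on the right: without it, r was 0.17 for *LDHA* and *DDIT4*, 0.17 for *SLC16A3* and *DDIT4* and 0.41 for *P4HA1* and *DDIT4*, against 0.64, 0.68 and 0.68 with all 6. That of *LDHA* and *P4HA1* was 0.18 without embryo 61. Of the 19297 other transcripts, 24 had a higher r of ratios with *LDHA* than *SLC16A3* had, 1383 than *DDIT4* and 1609 than *P4HA1*. With *P4HA1*, 1259 had a higher r of ratios than *SLC16A3*, 2339 than *DDIT4* and 3113 than *LDHA*. With *SLC16A3*, 1223 had a higher one than *DDIT4*. Over the 6 right otocysts r was highest for *LDHA* and *DDIT4* (0.89) and lowest for *LDHA* and *P4HA1* (0.23).

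**Figure D4:**
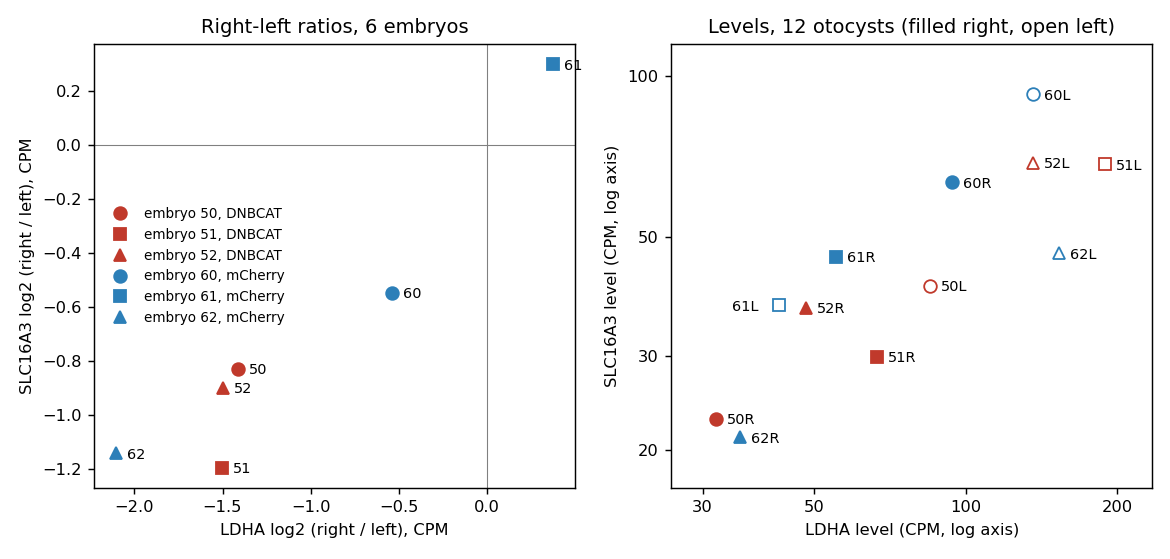
Left panel, right-left log2 ratio in CPM of *SLC16A3* (vertical axis) against *LDHA* (horizontal axis), with 1 point per embryo. Right panel, their levels in CPM on log axes in the 12 otocysts, filled for right and open for left. The 6 ratios run from embryo 62 (-2.10 for *LDHA*, -1.14 for *SLC16A3*) to embryo 61 (0.37 and 0.30).

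The variation of each gene was divided into shares of embryo, side and remainder. Of the sum of squares of log2 CPM over the 12 otocysts, the side accounted for 44.2% in *LDHA*, 32.8% in *SLC16A3*, 35.0% in *P4HA1* and 36.7% in *DDIT4*, against a median of 4.70% over all transcripts tested. Differences between embryos accounted for 32.5% in *LDHA* and for 51.1%, 49.3% and 52.3% in *SLC16A3*, *P4HA1* and *DDIT4*, against a median of 66.0%. The genes were chosen by their differences between the sides in the DNBCAT embryos. A large share of the side follows from that choice and leaves less for the embryo, so both shares are a description only.

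The genes whose levels followed each member most closely over the 12 otocysts were sought among the 807 transcripts with a name. These names come from the study's own tables, so only genes listed there could appear. *LDHA* was most like *SIRT5*, a mitochondrial deacylase (r = 0.92), followed by *SLC16A3* (0.84) and *DDIT4* (0.82). Of all 19297 other transcripts, 1 had a higher r with *LDHA* than *SIRT5* and 7 a higher r than *SLC16A3*. *SLC16A3* was most like *DDIT4* (0.85), *LDHA* (0.84) and *SLC2A1*, the glucose transporter GLUT1 (0.81). *DDIT4* was most like *SEMA3D*, a secreted semaphorin (0.87), which no other transcript exceeded, followed by *SLC16A3* (0.85) and *EMB*, a glycoprotein that accompanies lactate carriers to the membrane (0.85). *P4HA1* was most like *DISP1*, which releases Hedgehog proteins (0.95), *DOCK5*, a Rac activator (0.95), and *APCDD1*, an inhibitor of Wnt signalling (0.93), and 1236 transcripts had a higher r with it than *SLC16A3* did (0.78). The 12 otocysts are pairs from 6 embryos and include the contrast that chose the genes, so these r are descriptions. The order for *P4HA1* depended on the right otocyst of embryo 51. Without it *P4HA1* had a higher r with *SLC16A3* (0.92) than with *DISP1* (0.90), *DOCK5* (0.88) or *APCDD1* (0.87), and its r was 0.82 with *DDIT4* and 0.73 with *LDHA*.

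Only 5 other genes of glucose and lactate metabolism were examined, and the remaining genes of these pathways were not. Because *LDHA* and *SLC16A3* were chosen for their differences between the sides, smaller differences in other genes are a description only. Of the 7 genes in the list of glycolysis and lactate transport, which includes *LDHA* and *SLC16A3*, 6 had a log2 fold change below 0 in Wnt LOF EP 24 h, with a median of -0.30, and all 7 did in Control EP, with a median of -0.09. Over all transcripts 52.3% and 50% were below 0 in these datasets. Of the 5 genes other than *LDHA* and *SLC16A3*, none had an unadjusted p under 0.05 with edgeR or an adjusted p under 0.05 with DESeq2 in either dataset. Without *LDHA* and *SLC16A3* the medians of the other 5 genes were -0.17 in Wnt LOF EP 24 h and -0.06 in Control EP. *PFKFB3*, which makes the activator of phosphofructokinase, had the largest difference of the 5 after DNBCAT. It was at 7.67, 1.61 and 9.82 CPM in the right otocysts, against 14.6, 9.86 and 10.2 CPM in the left ones, a log2 fold change of -1.13 (SE 0.56, unadjusted p = 0.108, edgeR). The lowest value came from the right otocyst of embryo 51, and the ratio of embryo 52 was only -0.06. *SLC2A1*, the glucose transporter, had 75.6, 67.6 and 85.6 CPM on the DNBCAT side against 98.8, 96.7 and 85.6 CPM on the left, a log2 fold change of -0.30 (SE 0.13, unadjusted p = 0.0814, edgeR).

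The glycolytic enzymes *PGAM1* (phosphoglycerate mutase) and *ALDOC* (aldolase C) had log2 fold changes of -0.17 (SE 0.08) and -0.11 (SE 0.09) after DNBCAT, and *SLC16A1* (MCT1), a carrier related to *SLC16A3*, had 0.08 (SE 0.10). After mCherry the 5 genes lay between -0.10 (*PGAM1*) and -0.01 (*SLC16A1*), with unadjusted p-values of 0.389 to 0.909 (edgeR). Each of the 5 was higher on the right in embryo 61, the embryo in which *LDHA* and *SLC16A3* were higher as well, and lower on the right in embryos 60 and 62, a pattern of signs that 12.2% of all transcripts tested in Control EP had. Some genes of other lists had it too, among them *CA9*, *NEUROD1*, *NHLH1* and *SOHO-1*, so it was not confined to the glycolysis list. Others, such as *CA12* and *PLOD1*, did not have it. Whether the pattern was more frequent in the glycolysis list was not tested. Leaving out embryo 62 left 0 of the 5 below 0 and a median of 0.04, and leaving out embryo 61 gave 5 of 5 and a median of -0.21.

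Of the 8 genes in the hypoxia-inducible list, which includes *DDIT4* and *P4HA1*, 5 were below 0 in Wnt LOF EP 24 h (median -0.16) and 7 in Control EP (median -0.07). The shares of all transcripts below 0 were 52.3% and 50%. Only genes named in the study's tables could be listed, and other hypoxia-inducible genes were not examined. *CA12*, a membrane carbonic anhydrase, had 62.0, 41.0 and 26.4 CPM in the DNBCAT right otocysts, against 85.0, 111 and 55.0 CPM in the left ones. It was the lower side in each of the 3 embryos, although the groups overlapped, with a log2 fold change of -0.97 (SE 0.21, unadjusted p = 0.00872, adjusted p = 0.718 with edgeR's quasi-likelihood test, adjusted p = 0.000762 with DESeq2's Wald test). The list was chosen with earlier results of these data known, so the p-values of *CA12* are not independent evidence. DESeq2 called 2.35% of all transcripts in this dataset and edgeR 0%. After mCherry the log2 fold change of *CA12* was -0.18 (SE 0.14). *CA9*, another carbonic anhydrase and a widely used marker of hypoxia in mammals, had log2 fold changes of -0.04 (SE 0.09) after DNBCAT and -0.03 (SE 0.10) after mCherry, and it was higher on the right in embryo 61 (0.23).

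*PLOD1*, a collagen lysyl hydroxylase, had a log2 fold change of -0.28 (SE 0.11, unadjusted p = 0.0584, edgeR) after DNBCAT and of -0.03 (SE 0.05) after mCherry. *TFRC*, the transferrin receptor, went in both directions after DNBCAT, with log2 ratios of -0.31, 1.51 and 0.48, and *CXCR7*, a chemokine receptor, likewise, with -0.49, 0.72 and -0.21. For both genes the highest ratio was that of embryo 51. *CP* (ceruloplasmin), a copper enzyme of iron transport that the study's table lists, was at 3.16, 7.56 and 3.51 CPM in the DNBCAT right otocysts and at 0 CPM in the 3 left ones. After mCherry it was at 2.07, 2.93 and 3.16 CPM on the right, against 7.98, 0 and 6.02 CPM on the left, so a level of 0 also occurred in the left otocyst of embryo 61 and the presence of its reads differed between untransfected otocysts. Only *CA12* and *PLOD1* of the 5 genes other than *DDIT4*, *P4HA1* and *CP* were lower on the right in all 3 DNBCAT embryos, as were 17% of all transcripts. The median of the 5 was -0.04 after DNBCAT and -0.05 after mCherry. The DNBCAT median was -0.21 without embryo 51, 0.05 without embryo 52 and -0.08 without embryo 50.

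**Figure D5:**
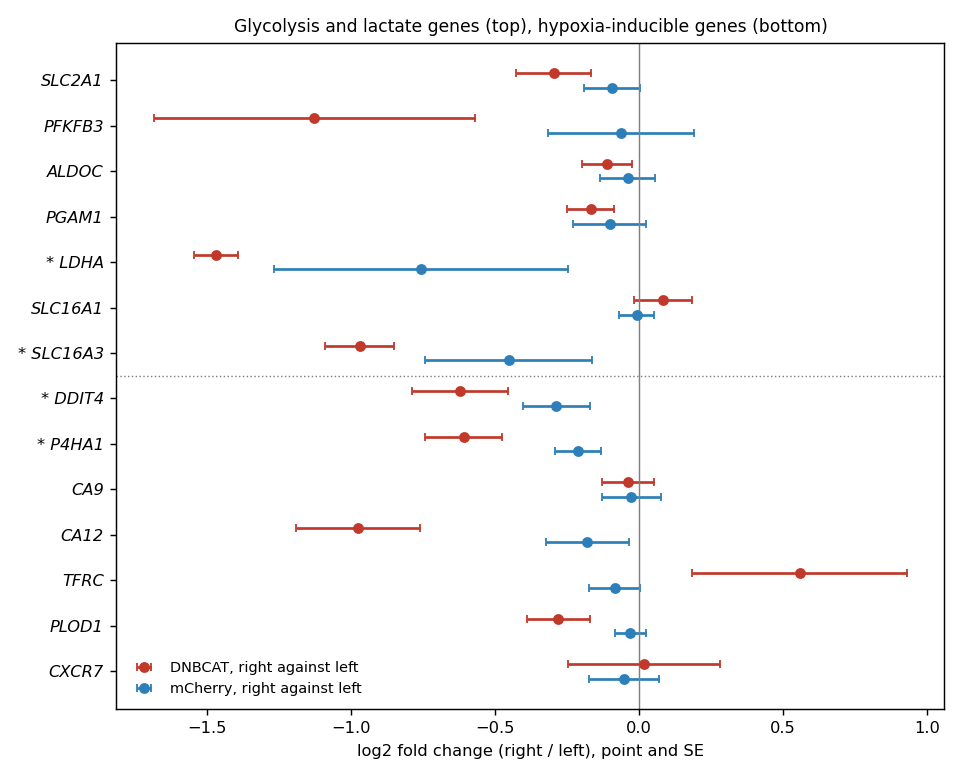
Log2 fold change of the right against the left otocysts (horizontal axis, point and standard error, edgeR) for the genes of glycolysis and lactate transport (above the dotted line) and the hypoxia-inducible genes (below it), with DNBCAT above mCherry for each gene. Stars mark the 4 genes described in full, and *CP*, which is at 0 in several otocysts, is left out. *LDHA*, *PFKFB3*, *CA12* and *SLC16A3* lie furthest to the left after DNBCAT, and *CA9*, *SLC16A1* and *CXCR7* lie within 0.10 of 0 in both datasets.

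Lists of genes that respond to handling, heat and misfolded protein were measured in the same otocysts. Of 8 immediate early genes, 6 were below 0 in Wnt LOF EP 24 h (median -0.29) and 7 in Control EP (median -0.12), beside 52.3% and 50% of all transcripts. *BTG2*, an antiproliferative gene that the study's table lists, had the lowest log2 fold change after DNBCAT (-0.67, SE 0.11) and *PIM1*, a kinase, the highest (0.28, SE 0.12, unadjusted p = 0.0697, edgeR). After mCherry the lowest was *EGR1*, a transcription factor (-0.34, SE 0.45), and the highest *CYR61*, a matricellular protein (0.20, SE 0.12). *EGR1* was scarce in the mCherry embryos, at 0.95 to 1.67 CPM on the right and 1.03 to 1.77 CPM on the left. It was as scarce in the DNBCAT embryos, at 0.76 to 1.35 CPM on the right and 1.01 to 1.83 CPM on the left. All 5 heat shock genes had a log2 fold change above 0 in both datasets. Over all transcripts 52.3% were below 0 in Wnt LOF EP 24 h and 50% in Control EP. By embryo the signs were less regular. *HSPA8*, *BAG3* and *HSPB9* were each below 0 in 1 mCherry embryo, and *HSPB9* also in DNBCAT embryo 52 (-0.25). The median of the 5 was 0.28 after DNBCAT and 0.08 after mCherry, with *ZFAND2A* the highest (0.59, SE 0.14 after DNBCAT, and 0.24, SE 0.08, unadjusted p = 0.0373, adjusted p = 0.960 with edgeR after mCherry) and *HSPB9* the lowest in both (0.09, SE 0.17 after DNBCAT, and 0.03, SE 0.08 after mCherry). After DNBCAT 4 of the 5 had an unadjusted p under 0.05 with edgeR and an adjusted p under 0.05 with DESeq2, and none an adjusted p under 0.05 with edgeR, beside the 6.2% and 2.35% of all transcripts given above. *ZFAND2A* and *HSPD1*, which are among the 4, are in the study's table and are not independent evidence. The others, *HSPA8* and *BAG3*, named after their values were seen, had log2 fold changes of 0.23 (SE 0.08) and 0.28 (SE 0.07) and DESeq2 adjusted p-values of 0.0284 and 0.0148. After mCherry 2 of the 5 (*ZFAND2A* and *HSPD1*) had an unadjusted p under 0.05 with edgeR, and none an adjusted p under 0.05 with edgeR or DESeq2. The summed level of the 5 heat shock genes was 4660 to 5387 CPM in the DNBCAT right otocysts and 3936 to 4259 CPM in the left ones, and 3454 to 4548 CPM in the mCherry right and 3502 to 4275 CPM in the mCherry left otocysts. This sum mostly reflects *HSPA8* and *HSPD1*, with means of 3435 and 1346 CPM in the DNBCAT right otocysts. *BAG3*, *ZFAND2A* and *HSPB9* had means of 138, 41.0 and 29.1 CPM there.

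The 10 genes of the unfolded protein response, to which the chaperone *HSPA5* belongs, moved little. Their median log2 fold change was 0.09 after DNBCAT, with 9 of 10 above 0, and 0.01 after mCherry, with 6 of 10 above 0. Over all transcripts 52.3% were below 0 after DNBCAT and 50% after mCherry. *CRELD2* was the highest after DNBCAT (0.20, SE 0.07, unadjusted p = 0.0510, edgeR) and *HYOU1* the lowest (-0.0041, SE 0.07), and after mCherry *XBP1* was the highest (0.07, SE 0.04) and *DNAJB9* the lowest (-0.08, SE 0.06). None of the 10 had an unadjusted p under 0.05 in either dataset.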

How the data were processed

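RNA of 12 single otocysts of 6 embryos was sequenced as paired ends after low-input amplification. Per the labels and the study's methods, the authors quantified reads with Kallisto against the chicken GRCg6a reference. For each otocyst they deposited estimated counts, not normalized, and TPM values of 28756 transcripts. A read that fits several transcripts is shared between them, so the value of 1 transcript depends on its annotated isoforms. PCR duplicates were not removed by molecular identifiers.

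Estimated counts were rounded and tested with edgeR 4.0.16 (quasi-likelihood, TMM, embryo as a block, Benjamini-Hochberg adjustment over all transcripts tested) in each dataset, after a filter that kept transcripts with 5 or more estimated counts in no less than 47% of its libraries. Standard errors are the fold change over the square root of the F statistic. Log2 ratios and correlations used CPM after adding 0.5 counts. limma 3.58.1 and DESeq2 1.42.0 were alternatives, and R 4.3.3 was used. The edgeR script was tested on simulated data. Right and left otocysts were paired by the embryo number of the sample titles, and their deviations from the group means correlated by 0.07 to 0.27 within embryos and by -0.19 to 0.02 between them.

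The genes and lists were chosen with earlier results of these data known. Gene names came from the study's tables, which name 807 of the transcripts without ambiguity, so 1 transcript stands for a gene. Named are the 4 genes, every gene of the glycolysis and hypoxia-inducible lists, the highest and lowest of the other lists, and for each of the 4 genes the 3 named transcripts most like it over 12 otocysts. Further genes are named as markers or examples, such as *AXIN2* and *HSPA5*. Others, such as *HSPA8*, *HSPD1*, *BAG3* and *FGF3*, are named for values already seen. The mesenchyme markers *ENG*, *NT5E* and *THY1* were not analysed here.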

Additional observations from a re-analysis of the deposited data

Results flagged for a closer look

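*CYR61*, an immediate early gene, was lower on the right in all 3 DNBCAT embryos (log2 ratios -0.34, -0.52 and -0.03) and higher on the right in all 3 mCherry embryos (0.05, 0.28 and 0.24). The DNBCAT change minus the mCherry change was -0.48 (SE 0.19, adjusted p = 0.935, edgeR). *FGF3*, one of the otic epithelium markers, went the other way, with log2 ratios of 0.56, 0.40 and 0.61 in the DNBCAT embryos and -0.20, -0.19 and -0.75 in the mCherry embryos, a difference of 0.91 (SE 0.30, adjusted p = 0.935, edgeR). Over all 19298 transcripts tested for this difference edgeR called 0% after adjustment, and 4.36% had an unadjusted p under 0.05. Both genes were picked for these opposite signs among the genes of all the lists. The share of all transcripts with such signs was not computed, so nothing is read from finding them. Of the 48 genes in all the lists other than the 4 described in full, 9 had an unadjusted p under 0.05 for the difference (*BTG2*, *FGF3*, *HSPD1*, *CRELD2*, *HSPA8*, *CA12*, *BAG3*, *PIM1* and *CYR61*), and 0 an adjusted p under 0.05 (edgeR). The difference contains the DNBCAT contrast, and the lists were chosen with earlier results of these data known. Some of these genes, such as *BTG2* and *HSPD1*, are in the study's table, so nothing is read from this count.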

How the results depend on the processing

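The number of transcripts with an adjusted p under 0.05 was 0 in both datasets with the embryo as a block (edgeR), and 0 with no replicate block, DESeq2's size factors, no filter on low counts, limma on log2(TPM + 1) or log2(TPM + 0.1), all 12 libraries in one fit and each embryo left out. DESeq2's Wald test called 456 transcripts in Wnt LOF EP 24 h and 84 in Control EP. None of the 4 genes passed in Control EP under any of these, and all kept a negative fold change in both datasets. Without the block, the log2 fold changes were -1.48 for *LDHA*, -0.98 for *SLC16A3*, -0.58 for *P4HA1* and -0.62 for *DDIT4* in Wnt LOF EP 24 h, and -0.84, -0.43, -0.21 and -0.30 in Control EP. On the TPM scale, which has no correction for composition, the median ratio of all transcripts in embryo 51 was -0.73. On that scale the DNBCAT values moved to -1.73 for *LDHA*, -1.19 for *SLC16A3*, -0.87 for *P4HA1* and -0.90 for *DDIT4* with log2(TPM + 1). With log2(TPM + 0.1) they were -1.76, -1.25, -0.90 and -0.92 in the same order. Over the left otocysts, leaving out embryo 61 turned *LDHA* and *P4HA1* to r = -0.15, and leaving out embryo 60 turned *P4HA1* and *DDIT4* to r = -0.22. With each embryo left out, r was 0.51 to 0.82 for *LDHA* and *SLC16A3*, -0.15 to 0.53 for *LDHA* and *P4HA1*, 0.12 to 0.73 for *LDHA* and *DDIT4*, 0.49 to 0.97 for *SLC16A3* and *P4HA1*, 0.43 to 0.93 for *SLC16A3* and *DDIT4* and -0.22 to 0.81 for *P4HA1* and *DDIT4*. No pair had an adjusted p under 0.05 under any of these alternatives. With 1 otocyst left out, the exact test has too few orders for 1 pair alone to reach that level. Those runs therefore decide nothing about significance. The precision is set by the 3 embryos of each dataset.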
